A study of Sus scrofa with 4 samples.

Results

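The Leydig gate of the 60-day pig testis held 119 barcodes, each with at least 0.5% of its unique molecular identifiers (UMIs, the counted RNA molecules) from INSL3, CYP17A1 and CYP11A1 together. They were chosen among the 11991 barcodes of that library that had at least 1000 UMIs, 500 genes or more and no more than 15% mitochondrial UMIs (13 genes), out of 16839 barcodes in the library and 55798 passing barcodes in the whole series. The members therefore made up 0.992% of the passing barcodes at 60 days (exact 95% interval 0.823 to 1.19%). The same gate held 558 of 13847 passing barcodes at 7 days (4.03%), 847 of 17285 at 30 days (4.90%) and 348 of 12675 at 90 days (2.75%).

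The series profiled cell suspensions of whole testis from Sus scrofa at 7, 30, 60 and 90 days of age by droplet RNA sequencing from the 3′ end, with no treatment or sorting named. Each age was 1 library, and the labels used here give neither the breed nor the number of animals behind a library. With no second library at any age, age and library cannot be told apart and nothing between ages was checked by replicates. Levels are in CPM, the counts of a gene per 1000000 counts after summing over a group of barcodes, ratios are on the log2 scale, and every interval is an exact 95% one for counting error alone. No change was tested. A gene is called clearly higher or lower when the ratio is at least 2-fold and its interval excludes no change.

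Leydig cells lie between the seminiferous tubules and are the testosterone source of the testis. Luteinizing hormone binds its receptor LHCGR on them and acts through cyclic AMP; STAR then brings cholesterol into mitochondria, CYP11A1 cuts its side chain with electrons passed on by FDXR and FDX1, and CYP17A1, helped by POR and CYB5A in the endoplasmic reticulum, makes androgen precursors. The boar testis is known for making much oestrogen through aromatase (CYP19A1) and for the 16-androstene steroids of boar odour, which also need CYP17A1 and CYB5A. Leydig cells also secrete INSL3, the peptide that guides testis descent.

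The 4 files held between 45717373 counts (60 days) and 96133720 counts (7 days). The 119 members had 376698 counts, against 5400276 in the members at 30 days and 1451768 at 90 days. Their median depth was 2499 UMIs, against 2326 in the other passing barcodes at 60 days, 5572 in the members at 30 days and 3546 in those at 90 days. The minimum of 1000 UMIs removed 4498 barcodes at 60 days, against 1367, 1743 and 2606 at 7, 30 and 90 days. Pairs of libraries shared 44 to 77 passing barcode sequences, and no member's barcode was also a member at another age. Scrublet, a doublet caller, marked 813, 1736, 0 and 828 barcodes at 7, 30, 60 and 90 days with its automatic threshold. The 0 is read as a failure of that threshold in the 60-day library, not as a lack of doublets, and none were removed at any age. The highest scores, in the number foreseen for the size of each library, held 85 (15.2%), 244 (28.8%), 3 (2.52%) and 58 (16.7%) of the members in the same order of age. The members compared with those at 60 days thus held more barcodes with high doublet scores.

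The gate was met far less strongly at 60 days than at the other ages. The share of the 3 gate genes in single members ran from 0.504% to 5.30% with a median of 1.13%, and the medians at 7, 30 and 90 days were 5.52%, 5.27% and 2.71%. At 60 days 54 members (45.4%) had 0.5 to 1%, 38 (31.9%) had 1 to 2% and 27 (22.7%, 15.5 to 31.3%) had 2% or more. That highest class held 89.6% of the members at 7 days, 88.3% at 30 days and 72.4% at 90 days. Near the threshold, 22 members had 0.5 to 0.6%, and 24 other barcodes had 0.4 to 0.5%. The summed level of the steroid genes outside the gate was 4743 (4238 to 5291) CPM in the former and 3958 (3447 to 4522) CPM in the latter. LHCGR was 251 (146 to 402) and 293 (168 to 476) CPM and FMO1, a flavin monooxygenase that oxidizes drugs and amines, 399 (263 to 580.5) and 257 (140.2 to 430.4) CPM on the same sides.

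**Figure D1:**
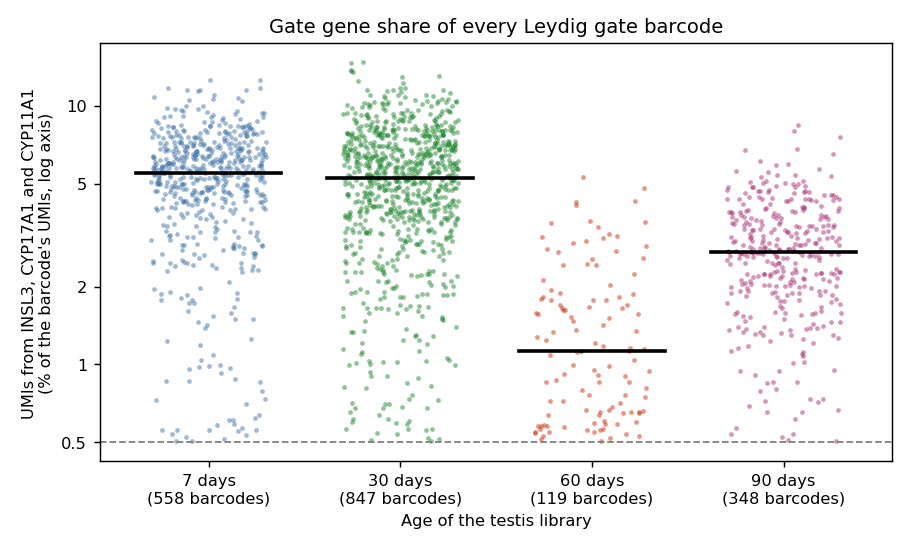
Share of each member's UMIs that came from INSL3, CYP17A1 and CYP11A1 (y axis, percent, log scale) in the 4 libraries (x axis, age in days), with 1 point per barcode, the median as a black line and the gate at 0.5% as a dashed line. The 60-day members crowd towards the gate with a median of 1.13%, whereas the 30-day members have a median of 5.27%.

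The chosen barcodes carried the Leydig program beyond the genes that chose them, as far as a contrast with the same barcodes can describe it. Of 12 Leydig markers 11 had a feature in the files and 8 of these were not gate genes; 6 of the 8 were clearly higher in the members than in the other passing barcodes at 60 days, and HSD17B3 and IGF1 were clearly lower. Across all 21318 genes tested, 2591 (12.2%) were at least 2-fold higher and 1975 (9.26%) at least 2-fold lower, or 4.51% and 4.71% when only clear calls are counted, and since the rule used this contrast nothing is read from the counts. At least 3 of the 8 markers were found in 73.1% of members and in 16.5% of the other barcodes, or in 53.8% and 1.87% after each barcode was thinned to 1000 UMIs. The thinned share was 33.3% in members with 0.5 to 1% of gate genes, 55.3% in those with 1 to 2% and 92.6% in those with 2% or more. The markers were thus sparsest in the members nearest the gate.

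The gate genes were also counted in many barcodes outside the gate. INSL3 was counted in 31.6% of the other passing barcodes and in 45.7% of 219 barcodes rich in Sertoli genes, which should lack it, at median depths of 2326 and 3148 UMIs. After thinning to 1000 UMIs these shares were 15.2% and 22.4%, against 97.5% of members. CYP17A1 was counted in 96.6% of members, 6.92% of the other barcodes and 10.5% of the Sertoli-marked ones. The members held 2.40 INSL3 counts per CYP17A1 count, at 2.41, 2.25 and 2.48 in the 3 classes of gate share, whereas the other barcodes held 7.14 and the Sertoli-marked ones 4.55. The part of free RNA in membership near the gate was not tested.

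Markers of other cells were present in the members, mostly below their level in the rest of the library. The summed level of 15 Sertoli markers was 1731 CPM in members and 3979 CPM in the other barcodes, with 13 of 15 genes counted and TF and HSD17B1 at 0. The summed level of 11 interstitial stromal markers was 3578 CPM against 6439 CPM, with 10 of 11 counted and TCF21 at 0. By class of gate share the Sertoli sum was 2659, 1385 and 1002 CPM and the stromal sum 4977, 3387 and 2070 CPM, so both were highest in the members nearest the gate. The 8 peritubular myoid markers summed to 350.4 CPM against 779. The 10 macrophage markers summed to 169.9 against 426 CPM, with CD163 at 0. Germ cell markers (9 of 12 counted, GFRA1, SYCP3 and STRA8 at 0) summed to 146 CPM and blood endothelial markers (6 of 9 counted, CDH5, KDR and CLDN5 at 0) to 61.1 CPM. All 4 red cell markers were at 0. Against the Leydig list, which holds the gate genes, 6 of the 119 members held as many UMIs of another marker list, 5 of the stromal and 1 of the Sertoli list. The gate genes chose the members, so this count cannot tell how pure they are. Without the gate genes the Leydig markers summed to 4598, 9171 and 14590 CPM by class of gate share. In the lowest class that was no higher than the stromal sum of 4977 CPM.

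The gate genes themselves describe how the members were picked. INSL3 (ENSSSCG00000013887, chromosome 2, 59929591 to 59931220 in RefSeq's Sscrofa11.1 annotation) was at 41663, 38753, 11208 and 17972 CPM in the members at 7, 30, 60 and 90 days. CYP17A1 (ENSSSCG00000010591, chromosome 14, 113805616 to 113820445) was at 11443, 12436, 4677 and 7372 CPM and CYP11A1 (ENSSSCG00000025273, chromosome 7, 59172829 to 59188479) at 2427, 2121, 1123 and 1676 CPM in the same order. All 3 were lowest at 60 days. In the other passing barcodes at 60 days they were at 189.7, 26.6 and 16.3 CPM.

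The steroid enzymes and cofactors outside the gate were lower at 60 days than at 30 days and slightly lower than at 90 days. The summed level of the 18 such genes with a feature was 23970, 18276, 9013 and 11537 CPM in members at 7, 30, 60 and 90 days, with an interval of 8712 to 9321 CPM at 60 days, and 1278 CPM in the other barcodes at 60 days. The log2 ratio was -1.02 (-1.07 to -0.97) against 30 days and -0.36 (-0.41 to -0.30) against 90 days. The sum rose with the share of gate genes at all 3 ages. In members with 0.5 to 1% of gate genes the sum was 3633 (3401 to 3877), 4598 (4243 to 4975) and 3687 (3408 to 3983) CPM at 30, 60 and 90 days. With 1 to 2% it was 8334 (8064 to 8610.2), 9029.6 (8529 to 9552) and 8322 (8015 to 8637) CPM. With 2% or more it was 19964 (19837 to 20092), 14506 (13796 to 15244) and 14134 (13895 to 14376) CPM. At a matched share the 60-day level was therefore the highest of the 3 ages in the lowest class, overlapped both in the middle class, and in the highest class lay below 30 days with an interval that overlapped that at 90 days. With members of at least 2% only, the log2 ratio was -0.46 against 30 days and 0.04 against 90 days.

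Counted gene by gene, 0 of the 16 steroid genes tested against 30 days were clearly higher and 5 clearly lower, where the background over 12733 genes was 12.6% higher and 3.38% lower. Against 90 days 0 of 15 were clearly higher and 3 clearly lower, with a background over 11444 genes of 6.75% and 8.52%. These backgrounds are not matched to the lists for level. The members had 376698 counts at 60 days, against 5400276 at 30 days and 1451768 at 90 days. A side at 0 was set to 3 counts, so genes with few counts can hardly be called lower at 60 days. The same limit holds for the backgrounds between ages given below. The list medians were -0.86 and -0.26, beside medians over all genes tested of 0.28 and -0.05. Without the highest Scrublet scores 1 steroid gene was clearly higher and 8 clearly lower against 30 days (background 19.7% and 4.58%). The clearly lower steroid genes against 30 days numbered 11 with TMM factors and 2 in members with 2% or more of gate genes. In these last members the counts against 90 days were 2 clearly higher and 3 clearly lower. That class holds 27 members at 60 days, and its background was 6.29% higher and 1.90% lower against 30 days and 3.98% and 3.15% against 90 days. Both comparisons use the same 60-day members, so they are not independent of each other. The levels of all genes against 30 days also depend on the scaling: TMM factors, which assume that most genes keep their level, shift every ratio by -0.62, and turn the split over all genes to 3.87% clearly higher and 12.6% clearly lower. Against 90 days the shift was 0.01 and against the other barcodes -0.07.

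STAR (ENSSSCG00000034942, chromosome 15, 48377597 to 48385398), the cholesterol carrier of the first step, was at 4492, 1379.7, 289 and 801 CPM in members at 7, 30, 60 and 90 days. The 60-day level had an interval of 238 to 349 CPM and was the lowest of the 4. The log2 ratio was -2.25 (-2.54 to -1.98) against 30 days and -1.47 (-1.77 to -1.18) against 90 days. In members with 2% or more of gate genes STAR was still lowest at 60 days, at 519.7 (393 to 675) CPM against 1503 and 1064 CPM. It was counted in 38.7% of members.

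The electron donors and the lyase cofactor ran with the enzymes at most ages. FDX1 was at 4029, 2709, 1375 and 784 CPM and, unlike the others, was higher at 60 than at 90 days (log2 0.81 (0.66 to 0.96)). FDXR was at 720.4, 604, 390.2 and 468 CPM and POR at 404, 391, 181 and 302 CPM, each lowest at 60 days. CYB5A, the cofactor of the CYP17A1 lyase step, was the highest of the steroid genes outside the gate at 11067, 9945, 5384 and 7116 CPM. In members with 2% or more of gate genes CYB5A was at 10938, 8446 and 8719 CPM at 30, 60 and 90 days, the intervals of the last pair overlapping. The other barcodes at 60 days held 513 CPM of CYB5A, so this gene was not absent outside the gate.

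The genes that act on the products split by age. CYP19A1, aromatase, was at 1102, 911, 218 and 167 CPM, with a log2 ratio of -2.06 (-2.40 to -1.75) against 30 days and 0.38 (0.00 to 0.75) against 90 days. The pig genome carries near-identical aromatase copies, so these counts cannot be assigned to 1 copy with certainty. SULT2A1, which adds sulfate to hydroxysteroids such as dehydroepiandrosterone, was at 255, 851, 146 and 681 CPM and lowest at 60 days, with log2 ratios of -2.54 (-2.95 to -2.16) and -2.22 (-2.64 to -1.83). Restricted to members with 2% or more of gate genes, SULT2A1 was at 945, 158 and 842 CPM at 30, 60 and 90 days, so its gap did not narrow with the gate. HSD17B4, a peroxisomal enzyme that oxidizes oestradiol and fatty acids, was at 1665, 1195, 796 and 929 CPM. SRD5A1, a 5-alpha reductase, rested on 7 counts at 60 days (18.6 CPM, against 86.1 at 90 days), and SRD5A2, HSD17B1 and SULT1E1 were at 0, which allows up to 9.79 CPM each.

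HSD17B3, which turns androstenedione into testosterone and is listed as a Leydig marker from other species, was not enriched in the members. It was at 61.6, 74.8, 74.3 and 55.8 CPM in members at the 4 ages and at 514, 379.7, 387 and 156 CPM in the other barcodes, so the members were lower at every age. At 60 days it reached 707 CPM in the 219 Sertoli-marked barcodes and 80.5 CPM in 2819 stromal-marked ones. Its log2 ratio in members between ages was -0.01 (-0.62 to 0.54) against 30 days and 0.41 (-0.26 to 1.05) against 90 days, both intervals including no change. IGF1, an insulin-like growth factor, was at 29.2 CPM in 60-day members from 11 counts and at 69.5 CPM in the other barcodes.

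**Figure D2:**
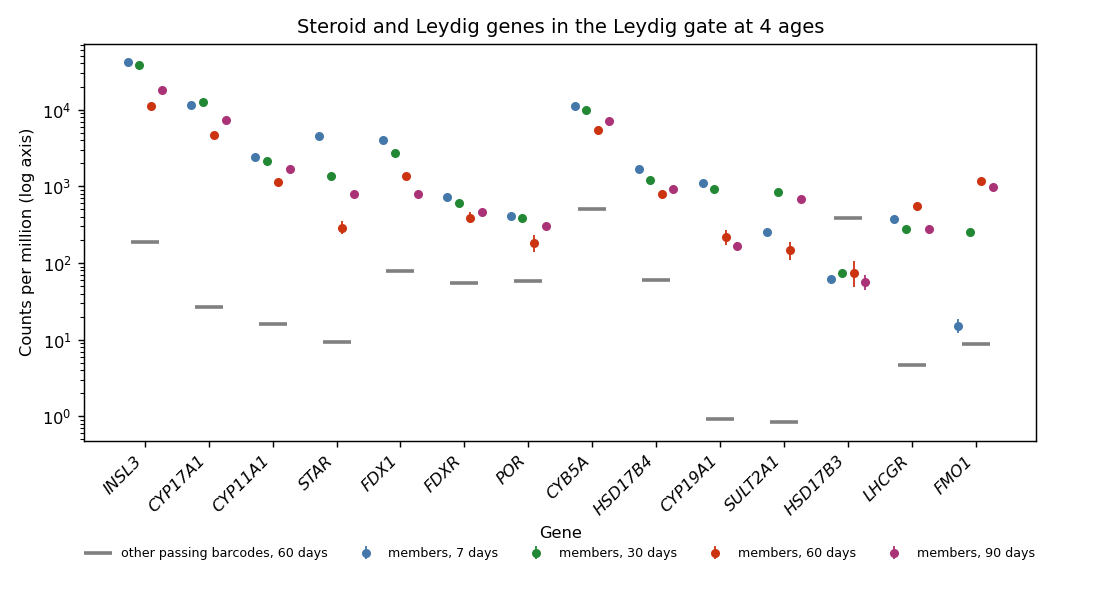
CPM (y axis, log scale) of 14 genes in the members at 7, 30, 60 and 90 days (coloured points, bars are exact 95% Poisson intervals) and in the other passing barcodes at 60 days (grey dashes). STAR is lowest at 60 days, at 289 CPM, LHCGR is highest there at 547 CPM, FMO1 runs from 15.1 to 1171 CPM between 7 and 60 days, and HSD17B3 lies below the grey dash.

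In its summed level the receptor for luteinizing hormone went the other way from the enzymes. LHCGR (ENSSSCG00000008421, chromosome 3, 91964415 to 92023821) was at 375, 274, 547 and 282 CPM in members at 7, 30, 60 and 90 days, with an interval of 475 to 627 CPM at 60 days, and was highest there. The log2 ratio was 0.997 (0.78 to 1.21) against 30 days, or 0.37 with TMM factors, and 0.96 (0.71 to 1.20) against 90 days. In members with 2% or more of gate genes the levels were 295, 956 (780.3 to 1159) and 325 CPM at 30, 60 and 90 days, a wider gap than over all members, and the 60-day level was the highest in the 2 lower classes as well. The other barcodes at 60 days held 4.63 CPM and the Sertoli-marked ones 8.14 CPM. LHCGR was counted in 52.1% of members and 1.29% of the other barcodes. At 7, 30 and 90 days it was counted in 88.4, 72.4 and 65.8% of members. After thinning, the shares of members were 27.2, 23.3, 26.9 and 27.6% at 7, 30, 60 and 90 days. The median level per member was lowest at 60 days. The order of the ages therefore differed between the summed level and the values per barcode.

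Downstream of the receptor the list of 20 gonadotropin and cyclic AMP genes was near the background. Against 30 days 3 of 20 were clearly higher and 1 clearly lower (background 12.6% and 3.38%), and against 90 days 2 of 19 were clearly higher and 2 clearly lower (background 6.75% and 8.52%). The medians were 0.43 and 0.11, and the first was -0.20 with TMM factors. PRKAR2B, a regulatory subunit of protein kinase A, was at 472, 511, 292 and 240.4 CPM, and PRKACB, a catalytic subunit, at 63.7, 78.5, 165 and 186 CPM. PRKACB differed from 30 days by 1.07 (0.66 to 1.46) and from 90 days by -0.18 (-0.60 to 0.23). CREM, a cyclic AMP responsive repressor and activator, was at 21.1, 27.6, 31.9 and 81.3 CPM, lower at 60 than at 90 days (log2 -1.35 (-2.34 to -0.49)).

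FMO1 (ENSSSCG00000015268, chromosome 9, 63860957 to 63895086) was the marker with the widest range over age. It was at 15.1, 255, 1171 and 975 CPM in members at 7, 30, 60 and 90 days and at 8.79 CPM in the other barcodes at 60 days. The log2 ratio was 2.20 (2.04 to 2.35) against 30 days and 1.58 with TMM factors. Against 90 days it was 0.26 (0.11 to 0.42) over all members, and in those with 2% or more of gate genes FMO1 was at 269, 1736 (1496 to 2003) and 1184 (1115 to 1255) CPM at 30, 60 and 90 days. FMO1 was counted in 60.5% of members, 2.50% of the other barcodes and 0.913% of the Sertoli-marked ones at 60 days. At 90 days it was counted in 89.4% of members. After thinning these shares of members were 48.7% at 60 days and 57.8% at 90 days, and the median level per member was also lower at 60 days. The order of these 2 ages therefore differed between the summed level and the values per barcode. The background against the other barcodes, the contrast the rule used, was 4.51% clearly higher and 4.71% clearly lower. Over the 22 genes tested in the list of xenobiotic and retinoid oxidation (median 0), 6 were clearly higher and 4 clearly lower in members. Among these FMO4, a relative of FMO1, was at 119 against 11.3 CPM, EPHX1, an epoxide hydrolase, at 730.0 against 169 CPM, and CYP26B1, which breaks down retinoic acid, at 10.6 against 80.04 CPM.

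**Figure D3:**
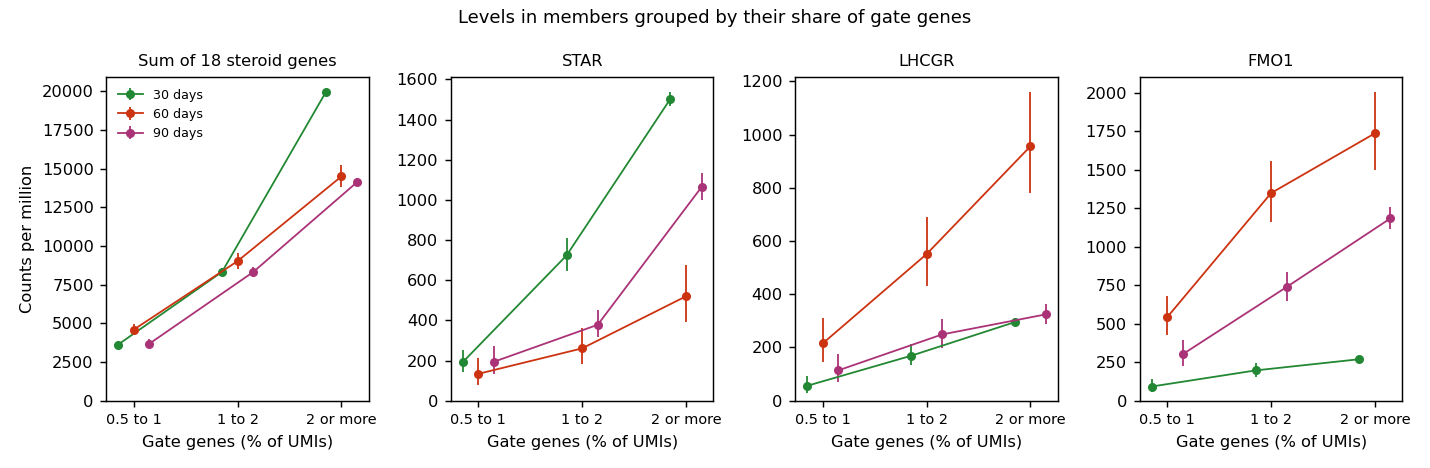
CPM (y axes, linear from 0, bars are exact 95% Poisson intervals) of the 18 steroid genes outside the gate and of STAR, LHCGR and FMO1 in members grouped by their share of gate genes (x axes, percent of UMIs) at 30, 60 and 90 days. The steroid sum rises with the share alike at 60 and 90 days, to 14506 and 14134 CPM, while LHCGR and FMO1 at 60 days lie above the other ages in all 3 classes and STAR lies lowest.

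Among the 20 genes with the largest excess over the other barcodes at 60 days, 6 encode intracellular enzymes not described above and are given first. They come from the contrast the rule used and are described without a test. RDH16 and RDH12, short-chain dehydrogenases of the retinol dehydrogenase family, were at 899.9 and 358 CPM in members and 5.83 and 1.93 CPM in the others. DHRS4, another short-chain dehydrogenase, was at 2649 against 32.7 CPM, and CBR1, a carbonyl reductase, at 478 against 1.88 CPM. SULT1C3, a cytosolic sulfotransferase, was at 1216 against 31.5 CPM, with 108 CPM in the stromal-marked barcodes. HPD, an enzyme of tyrosine breakdown, was at 50.4 against 0.710 CPM from 19 counts. Families of close relatives such as the short-chain dehydrogenases, sulfotransferases and glutathione transferases can share reads, so the counts of single members are uncertain to that extent.

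A second set with large ratios encodes secreted or membrane proteins. A2M, alpha-2-macroglobulin, a protease inhibitor, was the most abundant at 5633 (5396 to 5878) CPM against 135 CPM, and was counted in 94.96% of members. The stromal-marked barcodes held 469.8 CPM of it and the Sertoli-marked ones 24.4 CPM. GPX3, the secreted glutathione peroxidase, was at 512 against 4.45 CPM, AGT, angiotensinogen, at 478 against 13.1 CPM, and LPO, lactoperoxidase, at 199 against 1.17 CPM. RHBG, an ammonium transporter, CLIC5, a chloride intracellular channel protein, and KCNN2, a calcium-activated potassium channel, were at 106, 165 and 82.3 CPM against 0.881, 2.86 and 1.62 CPM. FRMD1, a FERM domain gene, had the largest ratio at 9.01 (7.89 to 10.32) from 38 counts, and FAM222A was at 82.3 against 2.30 CPM.

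Several of the genes with the largest deficit in members were highest in stromal-marked or Sertoli-marked barcodes. EMP1, an epithelial membrane protein, was at 5.31 CPM in members, 93.4 in the others and 302 in the stromal-marked barcodes. SPARCL1, a matrix protein, was at 7.96, 94.97 and 278 CPM and COL15A1, a basement membrane collagen, at 53.1, 286 and 1062 CPM in the same groups. MAP1B, a microtubule protein, ILDR2 and ARHGAP26, a GTPase activator, were at 199, 18.6 and 7.96 CPM in members and 925, 210.3 and 109.9 CPM in the Sertoli-marked barcodes. S100A12, a granulocyte protein, and CCL8, a chemokine, rested on 1 count each in the members. TOP2A, the topoisomerase of dividing cells, was at 10.6 against 101 CPM.

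**Figure D4:**
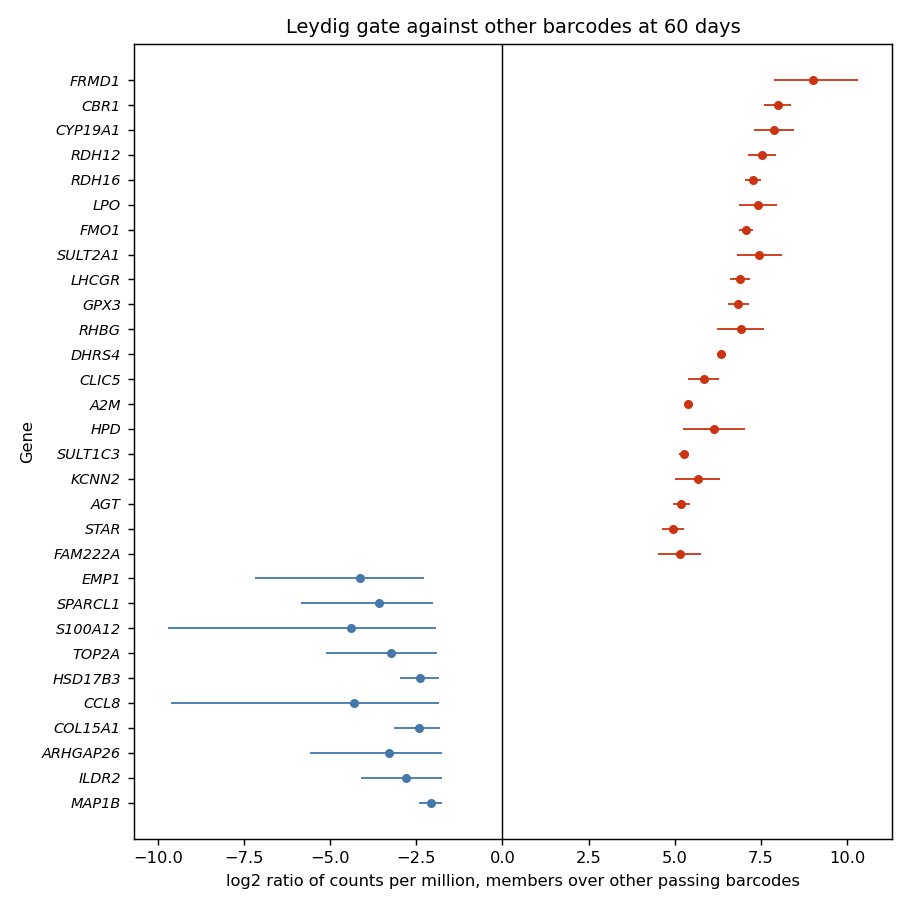
Log2 ratios of CPM in the 119 members over the other passing barcodes at 60 days (x axis, bars are exact 95% intervals) for the 20 genes with the largest excess (red) and the 10 with the largest deficit (blue), ranked by the interval bound nearest to 0. The excess runs from 4.95 for STAR to 9.01 for FRMD1, and the genes with wide intervals rest on few counts.

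Cell cycle genes were low over all members at 60 days. Of 23 cell cycle genes tested against 30 days, 1 was clearly higher and 11 clearly lower, and of 21 tested against 90 days 1 was clearly higher and 9 clearly lower, with medians of -1.08 and -1.11. The background was 12.6% higher and 3.38% lower against 30 days and 6.75% and 8.52% against 90 days. Among members with 2% or more of gate genes 0 were clearly higher and 3 clearly lower against 30 days (median -0.06). Against 90 days the counts were 0 and 1 (median -0.16). The background in that class was 6.29% and 1.90% against 30 days and 3.98% and 3.15% against 90 days. With 27 members there at 60 days and the floor for a side at 0, these values cannot tell whether the genes were less low in that class. TOP2A was at 323, 221, 10.6 and 117 CPM in members at 7, 30, 60 and 90 days, from 4 counts at 60 days, and CENPF, a kinetochore protein, at 181, 145, 13.3 and 82.7 CPM. The gene clearly higher against 90 days was CCND2, a D-type cyclin, at 125, 85.7, 154 and 56.5 CPM, below the 373 CPM of the other barcodes at 60 days. That against 30 days, named after its value was seen, was CDKN1A, an inhibitor of cell cycle kinases, at 21.1, 22.2, 47.8 and 37.2 CPM. CCND3, another D-type cyclin, was at 327, 384, 111 and 401 CPM and lowest at 60 days.

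Genes of cholesterol synthesis and uptake were low at 60 days too. Against 30 days 1 of 29 tested was clearly higher and 12 were clearly lower (median -0.79, background 12.6% and 3.38%), and against 90 days 3 of 28 were clearly higher and 7 clearly lower (median -0.48, background 6.75% and 8.52%). In members with 2% or more of gate genes the counts were 1 and 8 against 30 days, with a background of 6.29% and 1.90% and a median of -0.14. Against 90 days they were 2 and 5, with a background of 3.98% and 3.15% and a median of 0.02. IDI1, which makes the isoprenoid building block, was at 632, 1058, 169.9 and 220.4 CPM, and MVD, the last enzyme of the mevalonate steps, at 135, 179.6, 31.9 and 107 CPM. EBP, a sterol isomerase, was at 210.2, 266, 47.8 and 42.02 CPM, and ACAT2, an acetyl-CoA acetyltransferase, at 200.2, 341, 61.1 and 78.5 CPM. ABCA1, which exports cholesterol, was the gene clearly higher against 30 days, at 28.5, 23.7, 135 and 63.4 CPM, and was also clearly higher against 90 days together with SOAT1, which esterifies cholesterol (150.4, 198, 109 and 48.2 CPM), and NPC1, a lysosomal cholesterol transporter (81.4, 83.9, 95.6 and 35.1 CPM).

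Antioxidant enzymes and nuclear genes of oxidative phosphorylation were lower than at 30 days in part of their lists. Of 25 antioxidant and glutathione genes 0 were clearly higher and 6 clearly lower against 30 days (background 12.6% and 3.38%), and 2 and 3 against 90 days (background 6.75% and 8.52%). GSTA1, a glutathione transferase of the alpha class, was at 4780.0, 4075, 1333 and 635 CPM, NQO1, a quinone reductase, at 58.8, 497, 159 and 289 CPM, GSTO1 at 1016, 531, 119 and 137 CPM and GSTM3 at 11.8, 40.6, 26.5 and 332 CPM. GPX3 ran otherwise in its summed level, at 183, 362, 512 and 143 CPM, highest at 60 days. Its log2 ratio against 30 days was 0.50 (0.28 to 0.72), smaller in size than the TMM shift of -0.62. It was counted in 51.3% of members at 60 days and 71.5% at 30 days, or 25.2% and 30.1% after thinning. The order of these 2 ages therefore depended on the scaling and on the summing. Of 27 oxidative phosphorylation genes 0 were clearly higher and 9 clearly lower against 30 days, with a median of -0.49, and 1 and 1 against 90 days. UQCRC1, a core subunit of complex III, was at 243, 224, 79.6 and 182 CPM, and NDUFA13, a subunit of complex I, at 276, 229, 79.6 and 117 CPM. With TMM factors the clearly lower genes against 30 days numbered 17 of 29 for cholesterol, 17 of 25 for the antioxidant list and 19 of 27 for oxidative phosphorylation, where the background with these factors was 12.6% lower.

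The dehydrogenases and CBR1, all high in the members at 60 days against the other barcodes, were lower there than in members at 30 days. DHRS4 was at 10092, 11066, 2649 and 7122 CPM, RDH12 at 1724, 1629.5, 358 and 1872 CPM and CBR1 at 2338, 2087, 478 and 327 CPM in members at 7, 30, 60 and 90 days. Against 30 days their log2 ratios were -2.06, -2.18 and -2.13 over all members and -1.16, -1.32 and -1.32 in members with 2% or more of gate genes. RDH16 differed less, at 1234, 1280, 899.9 and 1618 CPM, with a log2 ratio of -0.51 (-0.67 to -0.35) against 30 days. HPD was at 137, 317, 50.4 and 32.4 CPM, FBP2, a fructose bisphosphatase, at 467, 207, 29.2 and 47.5 CPM and CKB, the brain-type creatine kinase, at 453, 192, 13.3 and 9.64 CPM. Against 90 days DHRS4 and RDH12 were clearly lower at 60 days, whereas CBR1 was higher at 60 days, with a log2 ratio of 0.55 (0.29 to 0.80), and the intervals of HPD, FBP2 and CKB included no change.

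A further group had its largest deficit at 60 days against 90 days. ALAS1, the first enzyme of haem synthesis, was at 1574, 239.8, 53.1 and 371 CPM, and SLC16A10, an aromatic amino acid transporter, at 200.1, 183, 55.7 and 333 CPM, and both were clearly lower against 30 days too, with log2 ratios of -2.18 (-2.89 to -1.54) and -1.71 (-2.41 to -1.09). The others were not clearly different from 30 days. FITM2, which helps form lipid droplets, was at 47.8, 20.6, 13.3 and 107 CPM, TGM2, a transglutaminase, at 19.3, 37.8, 23.9 and 158 CPM and NDRG4 at 6.88, 40.2, 55.7 and 378 CPM. SAMD5, at 2.95, 11.7, 2.65 and 77.1 CPM, and AKR1C2, an aldo-keto reductase that acts on steroids, at 20.2, 15.6, 5.31 and 54.4 CPM, rested on 1 and 2 counts at 60 days.

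Nuclear receptors and other transcription factors stood higher in the 60-day members than at both neighbouring ages. Of 20 tested against 30 days 8 were clearly higher and 0 clearly lower, and of 20 tested against 90 days 10 were clearly higher and 1 clearly lower, with medians of 0.86 and 1.01. The background was 12.6% higher and 3.38% lower against 30 days and 6.75% and 8.52% against 90 days. NR2F1 (COUP-TFI), an orphan nuclear receptor of mesenchymal cells, was at 84.5, 81.3, 303 and 42.02 CPM in members and 59.4 CPM in the other barcodes at 60 days. NR2F2 (COUP-TFII), which marks progenitors of Leydig cells and is also in the interstitial stromal list, was at 152, 227, 491 and 210.1 CPM. LHX9, a LIM homeobox factor of the early gonad, was at 11.3, 15.4, 90.3 and 12.4 CPM in members and 92.99 CPM in the other barcodes at 60 days. CEBPB, a factor of the C/EBP family that responds to hormones and cytokines, was at 263, 85.4, 334 and 128 CPM. NR5A1 (steroidogenic factor 1), which drives the steroid genes, was the gene clearly lower against 90 days, at 139, 95.7, 74.3 and 177 CPM. With TMM factors 6 genes of the list were clearly higher and 0 clearly lower against 30 days (median 0.24, background 3.87% and 12.6%). With members of at least 2% of gate genes the counts were 6 and 1 against both ages, with a background of 6.29% and 1.90% against 30 days and 3.98% and 3.15% against 90 days.

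The list of growth factor and hormone ligands and receptors was higher as well. Of 21 tested against 30 days 12 were clearly higher and 0 clearly lower (background 12.6% and 3.38%), or 4 and 0 with TMM factors (background 3.87% and 12.6%). Of 19 tested against 90 days 13 and 0 were (background 6.75% and 8.52%). With members of at least 2% of gate genes the counts fell to 3 and 1 against 30 days (background 6.29% and 1.90%) and to 3 and 0 against 90 days (background 3.98% and 3.15%). INSR, the insulin receptor, was at 37.5, 40.6, 191 and 64.7 CPM in members and 32.4 CPM in the other barcodes at 60 days, and its log2 ratio against 30 days was 2.24 (1.83 to 2.63) over all members and 2.44 in those with 2% or more. TGFBR3, a co-receptor for TGF-beta and inhibin, was at 362, 226, 446 and 172 CPM. INHA, the inhibin alpha chain, was at 670.1, 462, 469.9 and 187 CPM and INHBA, an activin and inhibin beta chain, at 31.5, 30.9, 63.7 and 15.2 CPM, while the other barcodes at 60 days held 1315 and 107 CPM.

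Interstitial stromal markers were also higher over all members than at both other ages, and matrix genes than at 90 days. Of the interstitial stromal markers 6 of 10 tested were clearly higher against 30 days and 8 of 10 against 90 days, 0 lower in both, and their sum was 2253, 3578 and 1449 CPM at 30, 60 and 90 days. In members with 2% or more of gate genes the sum was 2116 (2075 to 2158), 2069.7 (1807 to 2359.9) and 1297 (1225 to 1372) CPM. DCN, the proteoglycan decorin, was at 241, 275, 573 and 124 CPM in members and 1415 CPM in the other barcodes at 60 days. In members 11 of 25 matrix and basement membrane genes were clearly lower than in the other barcodes and 0 higher (background 4.71% and 4.51%). Against 90 days 10 of 24 were clearly higher and 0 lower (background 6.75% and 8.52%), or 6 and 2 in members with 2% or more of gate genes (background 3.98% and 3.15%). Against 30 days the counts were 3 and 1 of 24, which is near the background of 12.6% and 3.38%. The clearly higher genes there numbered 0 with TMM factors and with a gate of 1% or 2%. Without the highest Scrublet scores they numbered 10, beside a background of 19.7% clearly higher in that setting. The median of 0.40 became -0.22 with TMM factors and -0.29 at 2%. LUM, lumican, was at 137, 121, 234 and 33.8 CPM and COL4A1, a basement membrane collagen, at 87.2, 107, 159 and 42.7 CPM. NR2F1, NRK, IGFBP2, C3, CGNL1 and ABI3BP, named here for their ratios between ages, were at 217, 219, 124, 190.2, 101 and 85.9 CPM in the 2819 stromal-marked barcodes at 60 days. The part of stromal RNA or of stromal cells in these ratios was not tested.

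Several single genes with the largest ratios between ages fall in this set. ABI3BP, a matrix protein, was at 4.42, 12.04, 98.2 and 1.38 CPM in members at 7, 30, 60 and 90 days, with log2 ratios of 3.03 (2.41 to 3.63) against 30 days and 6.16 (4.20 to 9.25) against 90 days, from 37 counts at 60 days. IGFBP2, an insulin-like growth factor binding protein, was at 257, 65.9, 234 and 9.64 CPM, and NRK, a protein kinase, at 158, 57.96, 191 and 10.3 CPM. C3, the central complement protein, was at 587, 185, 268 and 43.4 CPM. GHSR, the ghrelin receptor, was at 12.8, 18.9, 92.9 and 15.8 CPM, KLF7, a zinc finger factor, at 4.75, 6.11, 50.4 and 7.58 CPM, and ABCA8, a lipid transporter, at 15.2, 7.22, 66.4 and 16.5 CPM. CGNL1, a junction protein, was at 17.5, 33.7, 79.6 and 8.95 CPM, GREB1, an oestrogen-responsive gene, at 21.1, 11.3, 50.4 and 4.13 CPM and LRRC17 at 33.6, 17.96, 55.7 and 5.51 CPM. The stromal-marked barcodes at 60 days held 106, 40.7, 70.1, 50.2 and 81.9 CPM of GHSR, KLF7, ABCA8, GREB1 and LRRC17. PPM1K, a mitochondrial phosphatase, at 161, 245, 465 and 66.8 CPM, and NUGGC, a nuclear GTPase, at 2.95, 7.59, 63.7 and 40.6 CPM, had more in members than in the stromal-marked barcodes, which held 82.9 and 0.395 CPM.

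Immediate early genes, switched on fast by stimulation and by cell handling, were higher in the 60-day members than at both other ages. In members 18 of 19 tested were clearly higher against 30 days and 12 of 18 against 90 days, 0 lower in both, with medians of 1.71 and 1.46, and 11 of 19 with TMM factors against 30 days. The background of clearly higher genes was 12.6% (3.87% with TMM factors) and 6.75%. With the 2% gate 10 were clearly higher against 30 days and 6 against 90 days (medians 1.40 and 0.81, background 6.29% and 3.98%). FOSB, a subunit of the AP-1 factor, was at 281, 288, 2262 and 867 CPM in members at 7, 30, 60 and 90 days and at 673, 2094 and 499 CPM in the other barcodes at 30, 60 and 90 days. EGR1, a zinc finger factor, was at 419.8, 437, 3024 and 908 CPM in members and 1006, 2468 and 495 CPM in the others. Within the 60-day library 1 of 20 was clearly higher in members and 6 clearly lower, with a median of -0.36 (background 4.51% and 4.71%). ZFP36L1, which speeds the decay of such short-lived messages, was at 398, 333, 1521 and 905 CPM in members.

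Interferon response and MHC class I genes were also higher than at 30 days. In members 12 of 20 tested were clearly higher against 30 days and 0 lower, or 9 and 0 with TMM factors, and 7 and 0 of 20 against 90 days. The background of clearly higher genes was 12.6% (3.87% with TMM factors) and 6.75%. With the 2% gate 3 were clearly higher and 1 clearly lower against 30 days (median 0.99, background 6.29% and 1.90%), and 1 and 0 against 90 days (median 0.22, background 3.98% and 3.15%). MX1, an antiviral GTPase, was at 60.1, 14.8, 87.6 and 74.4 CPM in members and 40.1, 143 and 40.02 CPM in the other barcodes at 30, 60 and 90 days. IRF1, an interferon regulatory factor, was at 33.4, 28.5, 143 and 53.04 CPM in members, and B2M, the invariant chain of MHC class I molecules, at 656, 1362, 2203 and 1110.4 CPM. The other barcodes at 30, 60 and 90 days held 83.03, 118 and 31.8 CPM of IRF1 and 1665, 2437 and 957 CPM of B2M. Within the 60-day library 0 of 23 were clearly higher in members and 2 clearly lower (background 4.51% and 4.71%).

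**Figure D5:**
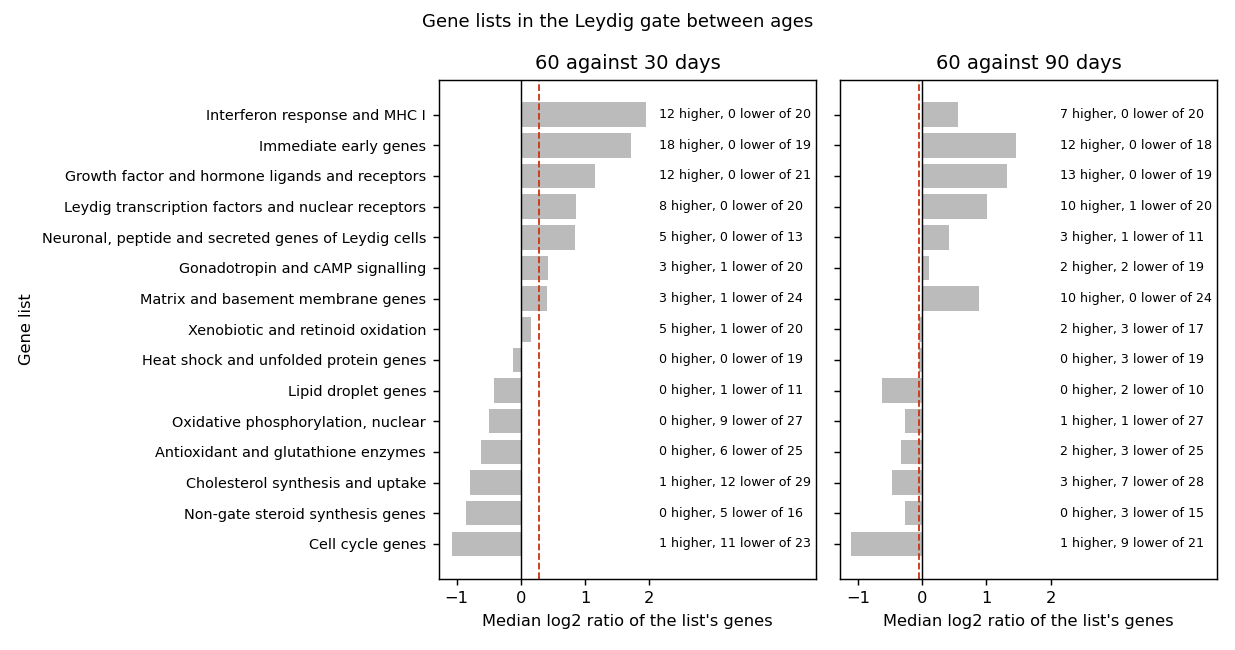
Median log2 ratio of CPM in members at 60 days against members at 30 days (left) and 90 days (right) for 15 gene lists (grey bars), with the median over all genes tested as a dashed red line and the count of clearly higher and clearly lower genes beside each bar. Immediate early genes, growth factors and transcription factors lie to the right in both panels, and cell cycle, steroid and cholesterol genes lie to the left.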

How the data were processed

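Single-cell 3′ libraries (10x chemistry version 3) of whole pig testis were sequenced by the authors, 1 per age, and the deposited matrices hold raw, unnormalized UMI counts. Genome build Sscrofa11.1 and the tools bcl2fastq, Cell Ranger and Scanpy 1.7.1 come from the submitters' processing notes. Per the file headers, Cell Ranger was at version 5.0.1. Of 31908 features, 16508 carried a symbol in the file and 825 were given one from a reference table of gene names. No cell annotation was used here, and no sequences were used.

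Members were picked by the gate given at the start of the results, and the gate, the gene lists and the rule for named genes were chosen with earlier results of these data known. Counts were summed per age and group, and CPM was taken of the sum over all features. CPM carry exact Poisson, ratios exact conditional binomial and shares exact Clopper-Pearson intervals at 95%. No test was run, as each age has 1 library. Genes with at least 10 counts over both sides were compared, and a side at 0 was set to a floor of 3 counts over the group. The text names the 20 genes with the largest excess and the 10 with the largest deficit against the other barcodes, and 10 of each between ages, ordered by whichever interval bound lay closest to 0. A symbol and 50 CPM or more on the higher side were required, and between ages 2 times the CPM of the other barcodes of that library. Mitochondrial, ribosomal protein, haemoglobin and gate genes were left out. All Leydig markers and steroid genes, and up to 4 members of each other list with the largest ratios per comparison, could be named as well. Of the genes this rule would name, 2 are not reported here. HSD3B1 and STS were among 34 of 463 list genes with no feature of that symbol.

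Sertoli-marked barcodes held at least 0.5% of UMIs from 6 Sertoli genes and under 1% from 7 stromal genes, and stromal-marked barcodes the reverse. Thinning drew 1000 UMIs per barcode. Doublets were scored per library with Scrublet in Scanpy 1.11.5, at an expected 0.8% per 1000 barcodes, and none were removed in the main setting. Python 3.11.15, NumPy 2.4.6, SciPy 1.17.1, pandas 2.3.3, matplotlib 3.10.9, and R 4.3.3 with edgeR 4.0.16 for TMM factors, were used. Intervals were tested on simulated counts at the real depths with 200 genes changed per comparison. They covered the set ratio for 97% of the changed genes against the other barcodes, 98.5% against 30 days and 95.5% against 90 days, with no spread between animals or cells in the simulation.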

Additional observations from a re-analysis of the deposited data

Results flagged for a closer look

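For 8 of the genes named between ages, the members stood on opposite sides of the other passing barcodes in the 60-day library and in the library compared, by at least 2-fold on each side and with both intervals clear of no change. Each value is the log2 ratio of members over the other barcodes of the same library, and the difference between ages was not tested, since each age is 1 library. The naming rule asked for at least 2 times the CPM of the other barcodes in the library where a gene was higher. That side was therefore fixed in advance, and only the side in the other library was free to vary. ABI3BP, a matrix protein, was at 2.08 at 60 days and -2.15 at 90 days. NRK, a kinase, was at 1.80 and -1.05, LRRC17 at 1.35 and -1.65, and GREB1, an oestrogen-responsive gene, at 1.26 and -1.95 at the same ages. CGNL1, a junction protein, was at 1.22 and -1.25, and GHSR, the ghrelin receptor, at 1.07 and -1.46. TGM2, a transglutaminase, ran the other way at -1.21 and 1.97. Against the 30-day library KLF7, a zinc finger factor, was at 1.27 and -1.24. NDRG4, at -0.84 at 60 days and 2.09 at 90 days, also changed side with both intervals clear of 0, but was under 2-fold at 60 days. At 60 days the 8 genes had 9 (TGM2) to 72 (NRK) counts in the members. The stromal-marked barcodes of that library held higher CPM than the members for NRK, LRRC17, CGNL1, GHSR and TGM2. They held lower CPM for ABI3BP, GREB1 and KLF7. All but TGM2 had their highest level in the members of the 60-day library among the 4 ages, which largely follows from their choice as increases at 60 days.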

How the results depend on the processing

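The size of the gate and the steroid sum (18 genes outside the gate) depended mainly on where the gate was set. Members at 60 days numbered 227 at 0.25% of UMIs, 65 at 1% and 27 at 2%, 73 with at least 2000 UMIs, and 76 with 1000 genes or more and no more than 10% mitochondrial UMIs. In the order of these 5 settings, the log2 ratio of the sum was -1.25, -0.73, -0.46, -0.92 and -0.77 against 30 days, and -0.65, -0.14, 0.0375, -0.27 and -0.30 against 90 days, so the direction against 90 days turned at 2%. Against the other barcodes it was 2.41, 3.15, 3.46 and 2.89 in the first 4 settings. Removing the highest Scrublet scores, thinning to 1000 UMIs and averaging over barcodes gave -1.30, -1.16 and -1.21 against 30 days and -0.61, -0.57 and -0.65 against 90 days. Averaging gave 2.69 against the other barcodes. TMM factors gave -1.64 against 30 days and 2.75 against the other barcodes, and subtracting 10% free RNA gave 2.95 there. Genes at least 2-fold higher than in the other barcodes numbered 1129 with at least 100 counts.

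The following 4 alternatives were chosen after seeing the data. Requiring an interval that excludes no change left 962 higher and 1005 lower genes. Against Sertoli-marked barcodes 1463 genes were higher, the steroid ratio was 2.35, and the named genes COL15A1 and IGF1 turned to 0.83 and 1.43. Against stromal-marked barcodes the steroid ratio was 3.90. Setting the gate at 1% at 60 days only left 65 members, with ratios of 3.17, -0.67 and -0.00875 against the other barcodes, 30 and 90 days. Over 18 settings, 121 ratios of named genes gave 2168 values, of which 1758 moved by less than their counting interval, 408 moved by more and 2 turned. Of 1620 recomputed list counts 1346 stayed within 1.5 times. The causes of these shifts were not tested. Removing doublets by Scrublet's automatic threshold was not run, because it marked 0 of 11991 barcodes at 60 days and is taken to have failed there. No paired analysis was possible because each age is 1 library and no comparison rests on a test. With 119 members and 376698 counts, a gene at 0 in the members can still be at up to 9.79 CPM.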

Other observations

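The heat shock and lipid droplet lists had few clear calls between ages. The background was 12.6% clearly higher and 3.38% clearly lower against 30 days and 6.75% and 8.52% against 90 days. Of 19 heat shock and unfolded protein genes 0 were clearly higher and 0 clearly lower in members at 60 against 30 days, by the exact conditional binomial interval, and 0 and 3 against 90 days. HSPD1, a mitochondrial chaperonin, was the 1 gene of this list clearly higher in members than in the other barcodes at 60 days, at 791 against 329 CPM. Of the lipid droplet genes 0 of 11 were clearly higher and 1 clearly lower against 30 days, and 0 and 2 of 10 against 90 days. Their medians were -0.42 and -0.63, beside medians over all genes tested of 0.28 and -0.05. PLIN2, a coat protein of lipid droplets, was at 170.4, 128, 95.6 and 63.4 CPM in members at 7, 30, 60 and 90 days.

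Among 20 neuronal, peptide and secreted genes tested against the other barcodes at 60 days, 2 were clearly higher and 7 clearly lower. The background of that contrast, which the rule used, was 4.51% and 4.71%. The list median was -0.05, and 6 of the 20 genes were at 0 in either the members or the other barcodes. VCAM1, an adhesion molecule, was at 69.02 against 14.1 CPM. CLU, the secreted chaperone clusterin, was at 3071 against 10368 CPM, and CHGA, a granin, at 175 against 529 CPM. Between ages CHGA was at 115, 75.9, 175 and 11.02 CPM and PENK, the enkephalin precursor, at 3.44, 43.5, 162 and 81.3 CPM in members at 7, 30, 60 and 90 days.

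A pair of features with an Ensembl identifier and no symbol met the other conditions for the largest excess over the other barcodes at 60 days. ENSSSCG00000041087 was at 3.77, 20.7, 82.3 and 84.7 CPM in members at 7, 30, 60 and 90 days and at 0.416 CPM in the other barcodes at 60 days. ENSSSCG00000044774 was at 5.08, 27.8, 58.4 and 72.3 CPM and at 0.392 CPM in the other barcodes.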
